A study of Mus musculus with 6 samples.

Results

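The Schlafen genes examined here are Slfn1, Slfn2, Slfn4, Slfn5, Slfn8 and Slfn9, 6 of the 26814 genes listed in a count matrix of mouse lip tissue. They were chosen by name, as Schlafen genes of chromosome 11, and each had counts in all 6 libraries. The samples were top lip tissue from adult female mice on a C57BL/6J background, 3 wild type (WT1 to WT3) and 3 homozygous for the Gtf2ird1 null allele tm1Hrd (KO1 to KO3), with 1 mRNA-Seq library for each mouse. The null allele is in the germ line and so in all cell types, so a difference between genotypes does not name the cell type that carried it. Total counts lay between 20164081 (KO1) and 29491767 (KO2), and levels are given as CPM, counts scaled to the size of each library. A library with no read of a gene could still have held up to 3, or between 0.0986 and 0.154 CPM, by counting error only. Gtf2ird1 itself stood at 78.2, 70.2 and 70.7 CPM in WT1 to WT3 and at 166, 162 and 144 CPM in KO1 to KO3. The targeted gene was thus higher where a null allele is labelled. A gene count can include transcripts made from the disrupted allele, so these values do not check the labels, and all directions below belong to the libraries labelled KO.

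Schlafen genes encode a family of proteins first described in developing thymocytes and named after the German word for sleeping, since some members hold back cell growth. The short members Slfn1 and Slfn2 consist of little more than the core domain, Slfn4 and its neighbour Slfn3 are of intermediate length, and Slfn5, Slfn8 and Slfn9 are long members that also carry a helicase-like region. Several Schlafen proteins bind or cut transfer RNA or repress transcription, and many of the genes are induced by type I interferon in immune cells and fibroblasts. In that response, interferon bound to its receptor activates a transcription factor complex with Stat2 and Irf9 that binds response elements upstream of interferon-stimulated genes.

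In GRCm38 (GENCODE annotation M21) the members lie within 238.9 kb of chromosome 11. From one end, Slfn5 spans chr11:82951349-82964840 on the + strand, Slfn9 chr11:82978390-82991830 and Slfn8 chr11:83002158-83020810 on the - strand, and Slfn2 chr11:83065112-83070678, Slfn1 chr11:83116849-83122670 and Slfn4 chr11:83175186-83190216 on the + strand. The transcribed pseudogene Slfn10-ps lies between Slfn8 and Slfn2, and Slfn3 and Slfn14 follow Slfn4. All 6 members are annotated as protein coding. The stretches before the transcription starts of the 3 members called higher, and of the long member Slfn5 that was not, are given here 5′ to 3′ along each gene's own strand, from RefSeq (GRCm38.p6). Capitals mark matches on either strand to GAAANNGAA, a short form of the interferon-stimulated response element, and to the core of that element, which is the short form followed by 1 more A, so that every match to the core is also a match to the short form. The windows are chr11:83064862-83065111 (+), chr11:83020811-83021060 (-), chr11:82991831-82992080 (-) and chr11:82951852-82951984 (+), the last shortened to 133 bases to stop before an annotated exon.
Slfn2: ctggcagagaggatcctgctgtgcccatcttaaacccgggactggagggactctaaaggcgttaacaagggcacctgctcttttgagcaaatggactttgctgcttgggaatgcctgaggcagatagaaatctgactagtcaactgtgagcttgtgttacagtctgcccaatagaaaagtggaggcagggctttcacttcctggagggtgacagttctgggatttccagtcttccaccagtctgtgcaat
Slfn8: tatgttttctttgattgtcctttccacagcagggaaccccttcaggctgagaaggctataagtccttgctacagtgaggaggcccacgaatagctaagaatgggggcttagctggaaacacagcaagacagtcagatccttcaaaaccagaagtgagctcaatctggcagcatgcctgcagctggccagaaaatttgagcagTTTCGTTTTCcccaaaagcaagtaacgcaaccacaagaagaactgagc
Slfn9: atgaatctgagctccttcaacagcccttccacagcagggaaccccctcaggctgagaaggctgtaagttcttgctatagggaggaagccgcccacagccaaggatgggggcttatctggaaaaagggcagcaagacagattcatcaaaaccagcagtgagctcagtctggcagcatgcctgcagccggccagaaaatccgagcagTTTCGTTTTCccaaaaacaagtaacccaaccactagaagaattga
Slfn5: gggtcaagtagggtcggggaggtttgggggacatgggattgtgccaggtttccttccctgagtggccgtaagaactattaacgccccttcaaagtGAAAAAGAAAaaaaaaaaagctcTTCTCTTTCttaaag
The Slfn8 and Slfn9 stretches each held 1 match to the core, beginning 48 and 45 bases upstream of the start, and both matches had the same letters. The Slfn5 stretch held 1 match to the core, beginning 155 bases upstream, and a further match to GAAANNGAA, beginning 132 bases upstream. These distances are from the RefSeq start, and the Slfn5 window lies inside the span that GENCODE gives this gene, whose first start is further upstream. No match to either motif was found in the windows of Slfn1, Slfn2, Slfn4 or Slfn3, which says only that these letters are not in them. The core was present in 3.44% of all 32851 promoter windows in the RefSeq table (250 bases before to 50 after the start) and GAAANNGAA in 8.56%. TTCNNNGAA, the site bound by paired Stat proteins, was in 8.30% of windows and in none of the members' windows. In a gapped alignment of the 250 bases before the start, Slfn8 and Slfn9 had 208 identical bases among 239 aligned, or 87.0%. The other 14 member pairs had between 29 and 154 identical bases, or between 70.1% and 78.9% of those aligned. Gaps at the ends cost nothing, so the aligned length differed between pairs. It was 40 bases in the pair with 29, Slfn2 and Slfn4. A second RefSeq start of Slfn8 held the same match, 136 bases upstream, and Slfn10-ps was not matched in the table.

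Slfn2, Slfn8 and Slfn9 were higher in the libraries labelled KO, by 9.66-fold, 4.42-fold and 4.09-fold. Slfn4 and the low Slfn1 were also above WT in every KO library but did not pass the test, and Slfn5 overlapped between genotypes. A gene entered edgeR's quasi-likelihood test if 3 or more libraries held 1 CPM of it, and p was adjusted by the Benjamini-Hochberg method over the 15009 genes that did. Of the 6 members 5 passed, and each of the 5 had at least 1 CPM in at least 2 WT libraries, so none passed through the KO libraries alone. At an adjusted p under 0.05, 3 members were called higher and 0 lower, where 4.38% of all tested genes were called higher and 2.09% lower. The median log2 fold change of the 5 tested members was 2.03, and that of all tested genes was -0.02. All 3 KO libraries lay above all 3 WT libraries in 4 of the 5 tested members, and this held for 13.5% of all tested genes, while 18.1% had all KO libraries below WT. Because the samples are whole tissue, fewer cells of a type and less RNA per cell cannot be told apart in any of these values.

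**Figure D1:**
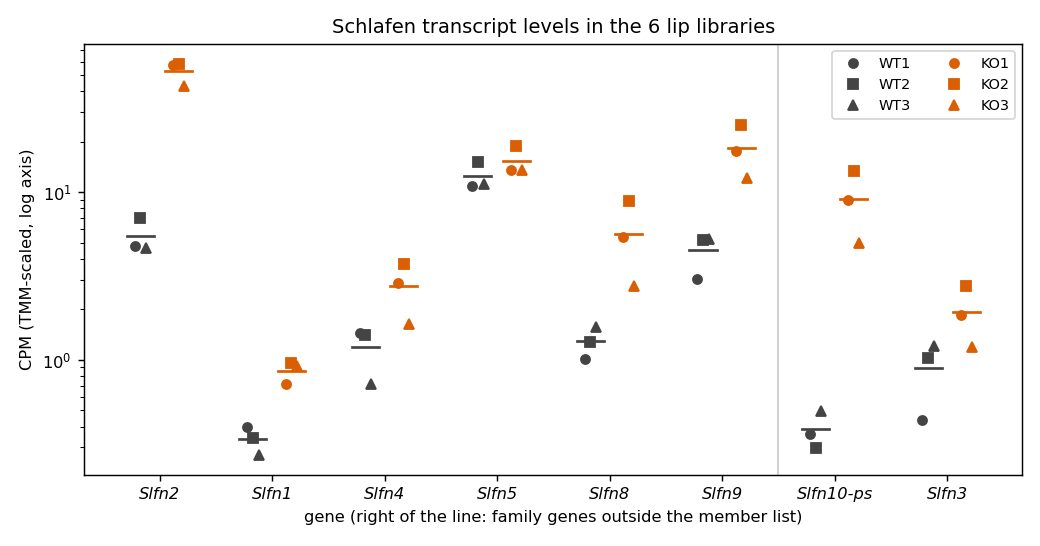
Level of each Schlafen gene in each library, in CPM after TMM scaling on a log axis, with WT libraries dark, KO libraries orange, and a bar at the mean of 3 mice. Among the 6 members Slfn2 shows the widest gap, between at most 7.06 CPM in WT and at least 42.9 CPM in KO, while the genotypes overlap in Slfn5 and Slfn3.

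Among the short members, Slfn2, which keeps T cells and monocytes in a resting state, had 4.75, 7.06 and 4.63 CPM in WT1 to WT3 and 57.5, 58.5 and 42.9 CPM in KO1 to KO3. The lowest KO library was thus several times above the highest WT library. The means were 5.48 ± 1.37 CPM in WT and 53.0 ± 8.70 CPM in KO (SD, n = 3 mice each), a log2 fold change of 3.27 with a standard error of 0.23 and a 95% interval from 2.75 to 3.79 (edgeR quasi-likelihood, adjusted p = 0.000128). Without any single library the log2 fold change of Slfn2 stayed between 3.16 and 3.55 and passed the threshold each time.

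Slfn1, the other short member and an inhibitor of T cell growth when overexpressed, was close to the limit of the assay. Its counts were 11, 8 and 6 in WT1 to WT3 and 14, 29 and 20 in KO1 to KO3, which gave 0.399, 0.340 and 0.270 CPM against 0.716, 0.953 and 0.915 CPM. The genotypes did not overlap, but no library reached 1 CPM and the gene was left out of the test. In a fit of all 26814 genes without the filter, the log2 fold change of Slfn1 was 1.40 (standard error 0.37, 95% interval 0.58 to 2.21, edgeR quasi-likelihood adjusted p = 0.0638). That fit called 3.41% of all genes higher, and Slfn1 was not among them. Also without the filter, the adjusted p was 0.0437 when KO3 was left out and 0.0273 in edgeR's exact test. The shares called higher in those fits were not computed, and with the filter they were 16.9% and 7.76%. The call on Slfn1 thus turns on the test and on 1 library.

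Slfn4, an intermediate member that in mice is best known from macrophages and myeloid progenitors, had 1.45, 1.40 and 0.720 CPM in WT1 to WT3 and 2.87, 3.72 and 1.65 CPM in KO1 to KO3. KO3, the lowest KO library, was only just above WT1. The log2 fold change was 1.20 (standard error 0.38, 95% interval 0.33 to 2.07) and the adjusted p of the quasi-likelihood test 0.0901. The adjusted p of Slfn4 fell to 0.00823 without KO3, in a fit that called 16.9% of all tested genes higher. It was 0.0203 in edgeR's exact test and 0.0299 in DESeq2's Wald test, which called 7.76% and 8.93% of all genes they tested higher.

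Slfn9, a long member, had 3.05, 5.19 and 5.26 CPM in WT1 to WT3 and 17.6, 25.3 and 12.1 CPM in KO1 to KO3. Each KO library was above the highest WT library, with KO2 at the top and KO3 at the bottom. The log2 fold change of Slfn9 was 2.03 (standard error 0.32, 95% interval 1.29 to 2.77, edgeR quasi-likelihood adjusted p = 0.00979), and it lay between 1.78 and 2.26, always past the threshold, when each library was left out.

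Slfn8, the long member beside Slfn9 on the same strand, had 1.02, 1.28 and 1.57 CPM in WT1 to WT3 and 5.37, 8.81 and 2.74 CPM in KO1 to KO3. The KO libraries again did not overlap with WT, and relative to their mean they spread more widely than in any other member, in the same order as for Slfn9. The log2 fold change of Slfn8 was 2.14 (standard error 0.43, 95% interval 1.16 to 3.12, edgeR quasi-likelihood adjusted p = 0.0267). The call on Slfn8 was lost when WT1, WT2, WT3, KO1 or KO2 was left out, with an adjusted p of 0.132, 0.0792, 0.0804, 0.0583 and 0.0896 in that order, and was kept without KO3 (0.000677). The log2 fold change over these fits was between 1.71 and 2.48. Of all genes tested without WT1, WT2, WT3, KO1 or KO2, 2.12%, 3.22%, 2.17%, 1.98% and 1.41% were called higher. Without KO3 the share was 16.9%, and with all libraries 4.38%.

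Slfn5, the long member that acts as a nuclear repressor of transcription, had 10.9, 15.2 and 11.2 CPM in WT1 to WT3 and 13.5, 18.9 and 13.5 CPM in KO1 to KO3. KO1 and KO3 lay below WT2, and only KO2 was above all WT libraries. The log2 fold change of Slfn5 was 0.30 (standard error 0.21, edgeR quasi-likelihood adjusted p = 0.365), with a 95% interval from -0.18 to 0.78, which holds no change as well as a moderate rise. The gene overlaps the antisense transcript Slfn5os over 559 exon bases, 8.8% of its exon length, and whether counting used the strand is not given in the sources used here. The Slfn5os entry, under the symbol 1700003F17Rik, held between 0 and 4 counts in a library.

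**Figure D2:**
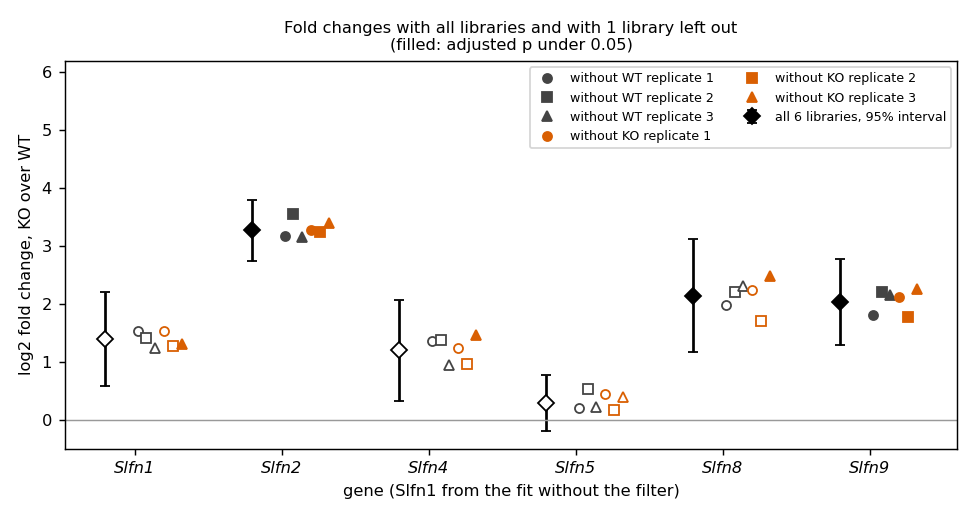
Log2 fold change of KO over WT for each member with all 6 libraries (diamond, 95% interval) and with 1 library left out (WT dark, KO orange), filled where the adjusted p of the quasi-likelihood test was under 0.05. Slfn2 and Slfn9 stay filled throughout, Slfn8 is open in 5 of the 6 left-out fits, and Slfn1 and Slfn4 are filled only without KO3.

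Divided by exon length, the levels gave an order of the members in each genotype. In WT, Slfn2 had 3.29 ± 0.821 CPM per kb and Slfn5 1.97 ± 0.382 CPM per kb, followed by Slfn9 (0.754 ± 0.211), Slfn8 (0.315 ± 0.0682), Slfn4 (0.301 ± 0.103) and Slfn1 (0.181 ± 0.0348; SD, n = 3 mice). Of the neighbours in that order, Slfn8 and Slfn4, and Slfn4 and Slfn1, overlapped over libraries. In KO the order was Slfn2 (31.8 ± 5.23 CPM per kb), Slfn9 (3.07 ± 1.11), Slfn5 (2.41 ± 0.493), Slfn8 (1.38 ± 0.744), Slfn4 (0.692 ± 0.262) and Slfn1 (0.462 ± 0.0682), and all neighbours below Slfn2 overlapped. Slfn5 and Slfn9 had thus changed places, though their KO libraries did not separate. Of the summed level per kb of the 6 members, Slfn2 made up 48.3, 50.7 and 45.2% in WT1 to WT3 and 82.2, 76.5 and 81.8% in KO1 to KO3. The share of Slfn5 was 29.01, 28.76 and 28.88% in WT1 to WT3 and 5.06, 6.49 and 6.76% in KO1 to KO3.

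Whether members differed in their change was asked with the log2 ratio of 2 members within a library, over 15 pairs. With 3 mice a genotype the smallest p of the two-sided exact permutation test is 0.1, and the smallest adjusted over the pairs was 0.188, so no pair could pass the threshold. The log2 ratio of Slfn2 to Slfn5 in CPM was -1.19, -1.11 and -1.28 in WT1 to WT3 and 2.09, 1.63 and 1.67 in KO1 to KO3. It was below 0 in each WT library and above 0 in each KO library. The ratios were not divided by exon length. Per kb, Slfn2 was above Slfn5 in WT as well (3.29 against 1.97 CPM per kb), so their order did not change. Genotypes did not overlap in 8 of the 15 pairs, among them each of the 5 pairs with Slfn2. Those 5 pairs share the values of Slfn2 and are not separate observations. The share of all gene pairs without overlap was not computed. In the pair of Slfn8 and Slfn9 the ratio was -1.57, -2.01 and -1.73 in WT1 to WT3 and -1.71, -1.52 and -2.13 in KO1 to KO3. The mean difference for Slfn8 and Slfn9 was -0.02, and the libraries of the genotypes overlapped.

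The size of the change also varied between the KO mice. KO2 held the highest value of each of the 6 members, and KO3 the lowest of the KO values in Slfn2, Slfn4, Slfn8 and Slfn9. Over the WT mean, Slfn2 was 10.5-fold in KO1, 10.7-fold in KO2 and 7.83-fold in KO3. For Slfn8 the figures were 4.17-fold, 6.84-fold and 2.13-fold, for Slfn9 3.91-fold, 5.61-fold and 2.69-fold, and for Slfn4 2.41-fold, 3.12-fold and 1.38-fold. Slfn1 did not share this order, with 2.13-fold in KO1, 2.83-fold in KO2 and 2.72-fold in KO3. KO3 was also the KO library most like WT over all tested genes, with a correlation of log2 CPM with the WT libraries between 0.948 and 0.955, against between 0.907 and 0.933 for KO1 and KO2. Leaving it out gave 2496 genes higher and 2395 lower in place of 657 and 314, and 4 of the 5 tested members were then called higher beside 16.9% of all genes tested in that fit.

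Of the Schlafen genes outside the list, Slfn10-ps had 0.363, 0.298 and 0.495 CPM in WT1 to WT3 and 8.96, 13.3 and 4.98 CPM in KO1 to KO3. This pseudogene showed a wider gap on the log scale than any member (log2 fold change 4.55, standard error 0.44, edgeR quasi-likelihood adjusted p = 0.000777), and the order of the KO libraries was that of Slfn8 and Slfn9. It passed the filter on low counts only through the KO libraries, so that it had to differ, and its WT counts were 10, 7 and 11. Slfn3, studied mainly in the differentiation of gut epithelium, had 0.436, 1.02 and 1.21 CPM in WT1 to WT3 and 1.84, 2.76 and 1.19 CPM in KO1 to KO3, with overlap between genotypes (log2 fold change 1.15, standard error 0.44, adjusted p = 0.132). Slfn14, known from platelets and erythroid cells, had 1 count in KO2 and 0 in the other 5 libraries, and Slfnl1, a related gene on chromosome 4, between 2 and 6 counts in each.

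Near-identical stretches limit how far counts of these genes can be set apart. Of all stretches of 100 bases in annotated transcripts, 3.38% of those of Slfn8 and 3.71% of those of Slfn9 occurred exactly in another gene, in both cases Slfn10-ps or the other of the pair. The share of Slfn10-ps was 7.84%, that of Slfn2 0.13% and that of Slfn1 0%. With up to 2 mismatches allowed, 16.95% of Slfn8, 15.4% of Slfn9, 14.4% of Slfn4 and 24.1% of Slfn10-ps stretches lay near another Schlafen gene, against 2.30% of Slfn2. Slfn8, Slfn9 and Slfn10-ps therefore share sequence, and their separate values are less certain than those of Slfn2. Slfn5 shared 6.40% of its stretches with genes outside the family, Slfn5os among them. Only reads assigned to 1 gene were counted.

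Within 500 kb of the outermost members, 36 further genes had counts and 16 were tested, of which 0 were called higher and 1 lower, with log2 fold changes between -0.96 and 0.38 and a median of -0.16. Over all tested genes 4.38% were called higher and 2.09% lower, so that this count is near the background. At an unadjusted p under 0.05, 6 of the 16 would have been named, beside 29.6% of all tested genes. The nearest tested genes on the side of Slfn5 were Unc45b, a chaperone of muscle myosin (log2 fold change -0.82, adjusted p = 0.107), and Nle1, a factor of ribosome assembly (0.20, adjusted p = 0.413). On the other side they were AI662270 (0.38, adjusted p = 0.258) and AA465934 (-0.32, adjusted p = 0.437). The gene called lower was Ccl6, a chemokine of myeloid cells (-0.96, adjusted p = 0.0363, edgeR quasi-likelihood, named after its value was seen), which lost its call when any library other than KO3 was left out. Gm11425, an untested pseudogene between Slfn8 and Slfn10-ps, had 1, 0 and 4 counts in WT1 to WT3 and 19, 36 and 6 in KO1 to KO3.

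**Figure D3:**
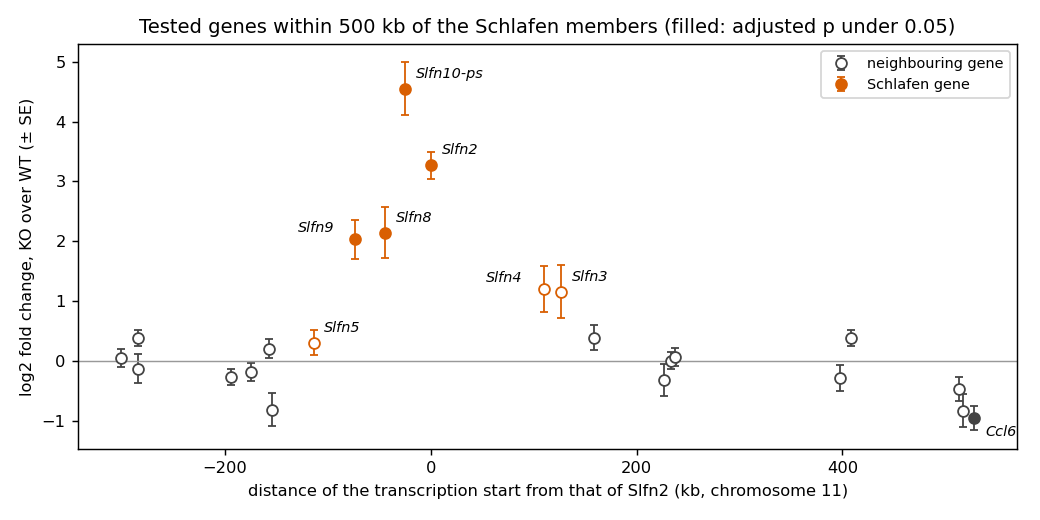
Log2 fold change (± standard error) of the tested genes in and around the Schlafen genes, by the distance of their start from that of Slfn2 in kb, with Schlafen genes in orange and neighbours dark, filled at an adjusted p under 0.05. The filled members are Slfn9, Slfn8 and Slfn2, Slfn10-ps is filled but passed the filter only through the KO libraries, and the 16 neighbours lie between -0.96 and 0.38.

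Other genes of the interferon response were described as lists. Of 30 interferon-stimulated genes, 27 were called higher and 0 lower, with a median log2 fold change of 2.43, against 4.38% higher and a median of -0.02 among all tested genes. Examples were Oas1a, an antiviral enzyme (32.1-fold, adjusted p = 0.000171), Isg15, a ubiquitin-like protein (log2 fold change 4.76, adjusted p = 0.000917), and Ifih1, a sensor of double-stranded RNA (2.52, adjusted p = 0.000729), while Trim25, a ubiquitin ligase and the most abundant of the list, had 1.02 (adjusted p = 0.00555). The 3 not called were Ifit2 (0.91), Cmpk2 (0.78) and Isg20 (-0.09). Of the 30 genes, 4 passed the filter only through the KO libraries. The count fell to 17 without WT1 and to 16 without KO2, where 2.12% and 1.41% of all tested genes were called higher.

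For the next 3 lists the shares over all tested genes were again 4.38% called higher and 2.09% lower. Of 13 signal transducers 5 were called higher and 0 lower, with a median log2 fold change of 0.46. Among them were Irf7 (1.98, adjusted p = 0.00864), Irf9 (1.84, adjusted p = 0.00119), Stat2 (1.60, adjusted p = 0.0121) and the kinase Jak1 (0.62, adjusted p = 0.0482), and the most abundant transducer, Stat3, had 0.09 (adjusted p = 0.687; edgeR quasi-likelihood test). Without WT1 or without WT3 Irf9 was the only one called, and without KO2 the 3 called were Irf9, Irf7 and Stat2. Those fits called 2.12%, 2.17% and 1.41% of all tested genes higher. None of the 6 receptor genes was called with all libraries, with a median of 0.01, -0.42 for Ifngr1 (adjusted p = 0.172), -0.32 for Ifngr2 (adjusted p = 0.240) and 0.12 for Ifnar1 (adjusted p = 0.578), 3 genes for chains of the interferon receptors. Without KO3 Ifngr1 was called lower (-0.56), in a fit that called 16.2% of all tested genes lower. Among 9 inhibitors Usp18, which removes Isg15 and dampens receptor signalling, was called higher (3.91, adjusted p = 0.000961), and the phosphatases Ptpn2 (0.55, adjusted p = 0.135) and Ptpn11 (0.31, adjusted p = 0.186) were not. Without KO3 Ptpn2 was called higher as well, beside 16.9% of all genes tested in that fit.

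Of 13 further nucleases and nucleic acid binders of antiviral defence, whose roles are nearest to the RNA-cutting members, 2 were called higher and 0 lower, with a median log2 fold change of 0.17, beside 4.38% called higher of all tested genes. Samhd1, which degrades nucleotides, had 1.05 (adjusted p = 0.00380) and Adar, an editor of double-stranded RNA, 1.26 (adjusted p = 0.00580), while the RNA-binding protein Zc3hav1 had 0.44 (adjusted p = 0.0827; edgeR quasi-likelihood test). Trex2 and Dicer1 were among the genes also called without KO3, a fit that called 16.9% of all genes higher. Of 21 interferon genes searched for, 8 had counts and 0 passed the filter. Ifnk, the most abundant of the 8, had 1, 4 and 8 counts in WT1 to WT3 and 14, 22 and 10 in KO1 to KO3. Ifna13, picked out after its values were seen, had 0, 2 and 0 counts in WT1 to WT3 and 12, 19 and 3 in KO1 to KO3. Summed over the interferon genes the level was between 0.109 and 0.450 CPM in WT and between 0.823 and 1.69 CPM in KO.

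**Figure D4:**
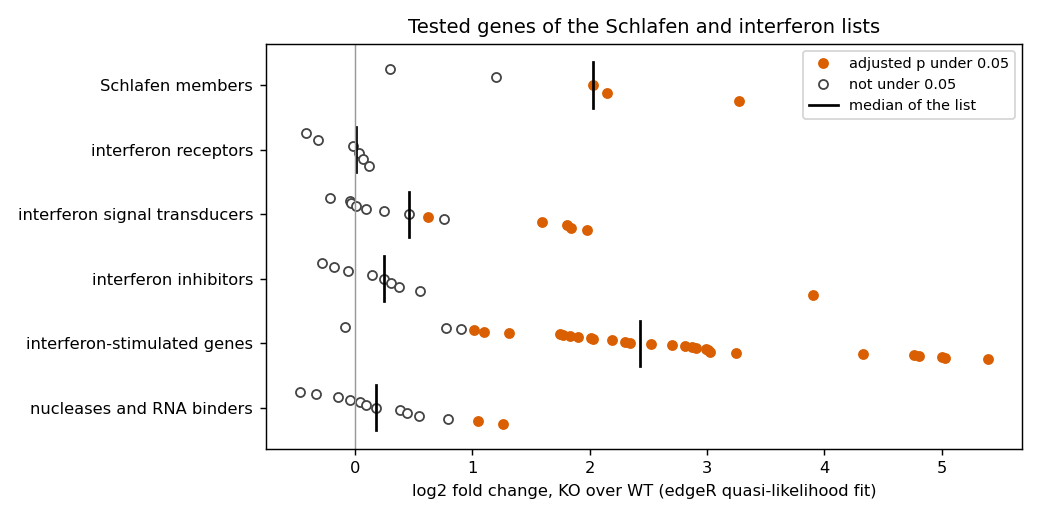
Log2 fold change of KO over WT for each tested gene of the Schlafen list and of 5 lists from the interferon response, orange where the adjusted p of the quasi-likelihood test was under 0.05, with a bar at the median of each list. The medians are 2.03 for the Schlafen members and 2.43 for interferon-stimulated genes, and between 0.01 and 0.46 for the others.

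The lowest KO library differed between the summed interferon-stimulated genes and the summed Schlafen members. The 30 interferon-stimulated genes summed to between 188 and 195 CPM in WT and to 585, 1233 and 1125 CPM in KO1 to KO3, where KO1 was lowest. The 6 members summed to between 21.5 and 30.5 CPM in WT and to 97.5, 116 and 73.9 CPM in KO1 to KO3, where KO3 was lowest. KO2 was highest in both sums. Of the 30 interferon-stimulated genes taken singly, 26 had their lowest KO value in KO1 and 4 in KO3, and of the members Slfn1 and Slfn5 had it in KO1. Whether these orders differ beyond the spread between mice was not tested.

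Genes known to mark the cell types in which Schlafen genes are usually studied were summed in the same way. Of 5 genes of all leukocytes 0 were called, and their sum lay between 110.1 and 136 CPM in WT and between 92.0 and 163 CPM in KO. Of 13 T cell genes 9 were tested and 0 called, though all 9 had a positive log2 fold change with a median of 0.67, and their sum was between 16.9 and 23.7 CPM in WT and between 22.5 and 37.2 CPM in KO. For monocytes and macrophages 11 of 12 genes were tested and 0 called (median -0.14), with sums from 544 to 579 CPM in WT and from 414 to 563 CPM in KO. Single genes of the leukocyte list differed in this. Ptprc (10.2, 14.2 and 14.0 CPM in WT1 to WT3, and 20.7, 26.0 and 14.5 CPM in KO1 to KO3) and Cd52 were above WT in each KO library, as were 13.5% of all tested genes. Coro1a (log2 fold change 0.11), Laptm5 (-0.27) and Cd53 (-0.05) overlapped between genotypes. The sums were also small for B cells (14.4 to 17.8 CPM in WT, 8.90 to 16.3 in KO), NK cells (1.996 to 2.79 and 2.46 to 3.68) and neutrophils (4.72 to 6.86 and 6.63 to 9.16), where only 1 of 5, 1 of 7 and 2 of 8 genes with counts were tested and 0 called. The matrix lists only genes with at least 1 read, so no gene with an entry was at 0 in all 6 libraries. Cd8a, Ms4a1, Ncr1, Gzma, Eomes, Ly6c2, Ngp and Ltf had 0 counts in 1 or more libraries, and Ltf had its only count, 1, in KO1. Ly6g and Elane had no entry. The 8 genes of dendritic and Langerhans cells summed to between 314 and 414 CPM in WT and between 277 and 595 CPM in KO. Of these 5 were tested, with a median log2 fold change of 0.28, and 1 was called higher, beside 4.38% of all tested genes. This was Cd207, a lectin of Langerhans cells (log2 fold change 1.81, edgeR quasi-likelihood adjusted p = 0.000932). Itgax (0.56), Cd74 (0.28), Flt3 (0.11) and Zbtb46 (-0.40) were not called.

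Markers of the main tissues of the lip moved too. Keratinocyte genes summed to between 26770 and 31390 CPM in WT and between 38430 and 51780 CPM in KO. Of 10 genes, 7 had a positive and 3 a negative log2 fold change. The cornified envelope gene Ivl was the 1 called higher (1.55, edgeR quasi-likelihood adjusted p = 0.0292), beside 4.38% of all tested genes. Krt1 (mean 8019 CPM in WT, 18220 in KO) and Krt10 (8715 and 13570) weighed most in the higher sum. Krt5 (4888 and 4762 CPM) and Trp63 (log2 fold change 0.10) changed little. Col17a1 (-0.34) was below WT in each KO library, as were 18.1% of all tested genes. Fibroblast genes summed to between 6530 and 8463 CPM in WT and between 2835 and 6790 CPM in KO with 0 of 7 called, and endothelial genes to between 132 and 172 CPM and between 98.9 and 166 CPM with 0 of 5 called. Skeletal muscle genes summed to between 11390 and 14410 CPM in WT and between 5647 and 8818 CPM in KO. All 7 were below WT in each KO library, beside 18.1% of all tested genes. Tnnt3 was the 1 called lower (-1.01, edgeR quasi-likelihood adjusted p = 0.0397), beside 2.09% of all tested genes. Defining markers of the labelled tissue, epidermis, dermis and muscle of the lip, were thus abundant in every library. The part of these shifts in the Schlafen values was not tested.

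**Figure D5:**
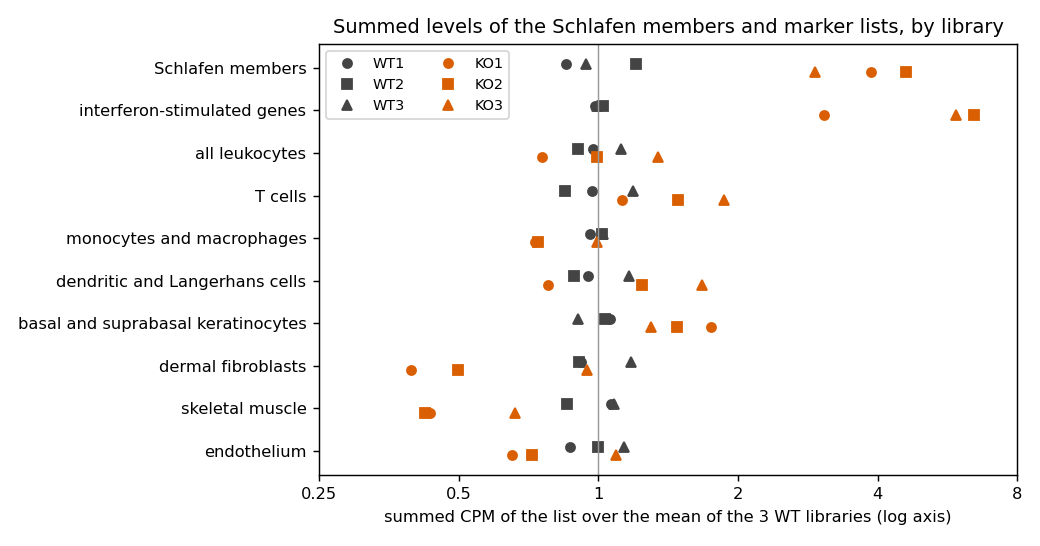
Summed CPM of each gene list in each library, divided by the mean of the 3 WT libraries, on a log axis, with WT dark and KO orange. The sums of Schlafen members, interferon-stimulated genes and keratinocyte genes lie to the right of WT in all 3 KO libraries. The leukocyte and macrophage sums do not, and skeletal muscle lies to the left in all 3.

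The 3 genes most like each tested member over the 6 libraries, by Pearson correlation of log2 CPM, were taken as a description, with genotype and library shared by all points. Gm12724 (r = 0.998) and Gm12495 (r = 0.998) followed Slfn2, with mean levels of 0.0696 and 0.0142 CPM in WT and 6.65 and 9.43 CPM in KO, and so did Mcm9, a gene of DNA repair (r = 0.998), at 12.7 and 64.3 CPM. For Slfn9 they were Adamts3 (r = 0.997), Cebpz (r = 0.993) and Gm13086 (r = 0.993), and for Slfn8 Kdm1a (r = 0.998), Hsp90aa1 (r = 0.994) and Eif5b (r = 0.994). The measure takes no account of size, and Kdm1a had a log2 fold change of 0.11 beside the 2.14 of Slfn8. Slfn4 was closest to Eaf1 (r = 0.994), Gramd2 (r = 0.993) and Atg14 (r = 0.991), and Slfn5 to Ric8b (r = 0.993), Cbx3 (r = 0.986) and Lipt1 (r = 0.986). None of these 15 genes was in the interferon lists. Those lists hold few of the 15009 tested genes, so this was likely in advance and nothing is read from it. Gm12724 and Gm12495 passed the filter only through the KO libraries, so that they had to differ between genotypes.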

How the data were processed

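Top lip tissue of 3 KO and 3 WT mice gave 1 library each. Paired-end reads had been aligned to GRCm38 by the authors (TopHat2 2.0.8, Bowtie2 2.1.0), and the deposited values are whole-number counts of reads assigned to 1 gene by HTSeq, without normalization. Counting mode and strand are not given in the sources used here. All 6 columns were used. The counts were filtered at 1 CPM, by total library size, in at least 3 libraries and then scaled by TMM. They were fitted with glmQLFit (legacy=FALSE) and glmQLFTest in edgeR 4.0.16 (R 4.3.3, limma 3.58.1, DESeq2 1.42.0). The p-values were adjusted by the method of Benjamini and Hochberg at a threshold of 0.05. Intervals are 95%, and log2 CPM used a prior count of 2. The procedure was tested on simulated data. Sequences were searched and aligned with Python 3.11.15 and Biopython 1.88, and figures drawn with matplotlib 3.10.9.

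The members and lists were chosen with earlier results of these data known. Genes named are the 6 members, the 4 other Schlafen genes, the 3 genes most correlated with each tested member, from each list of the interferon response the 3 with the lowest p and the most abundant, cell type markers, Gtf2ird1 and the 2 nearest tested genes on each side. Jak1, Gm11425, Taf15, Ptprc, Cd52, Ccl6, Ifna13, the genes not called among interferon-stimulated genes, and those called when 1 library was left out were named in addition, after their values were seen. Some genes of these lists are counted but not reported singly here. The alternatives were limma-voom, the exact test of edgeR, the Wald test of DESeq2, legacy=TRUE, robust estimation, DESeq2 size factors, library size alone, upper-quartile scaling, no filter, at least 10 counts in every library, a replicate block, an adjusted p under 0.1, and each library left out.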

Additional observations from a re-analysis of the deposited data

How the results depend on the processing

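Slfn2, Slfn5, Slfn8 and Slfn9 kept their direction and their side of the threshold under all 11 alternative fits, with log2 fold changes between 3.21 and 3.32, 0.24 and 0.35, 2.02 and 2.20, and 1.97 and 2.09. Slfn4 passed in edgeR's exact test (1.20, adjusted p = 0.0203) and DESeq2's Wald test (1.24, adjusted p = 0.0299), and Slfn1, fitted without the filter, passed in the exact test (1.40, adjusted p = 0.0273). Between 3 and 4 members were called under these alternatives and between 2 and 4 with 1 library left out. The share of all tested genes called higher was between 3.24% and 8.93% under the alternatives. In the left-out fits it was between 1.41% (without KO2) and 16.9% (without KO3). The share called lower in them was between 0.122% (without KO2) and 16.2% (without KO3). With 1 library left out, the log2 fold changes lay between 3.16 and 3.55 (Slfn2), 1.78 and 2.26 (Slfn9), 1.71 and 2.48 (Slfn8, passing only without KO3), 0.95 and 1.46 (Slfn4), 0.17 and 0.53 (Slfn5) and 1.23 and 1.54 (Slfn1). The numbers called then lay between 0 and 1 for receptors, 1 and 6 for transducers, 1 and 2 for inhibitors, 16 and 24 for interferon-stimulated genes, 2 and 5 for nucleases and binders, and 0 and 3 for the neighbouring genes. Without the filter 1 interferon gene was called, Ifna13 (log2 fold change 3.91, adjusted p = 0.0357). Nucleases and binders numbered 4 in DESeq2 and 4 at an adjusted p under 0.1, where 8.93% and 8.32% of all tested genes were called higher. Neighbouring genes numbered 2 in the exact test, 3 in DESeq2 (with Gm11425 and Taf15 higher), 2 without the filter (with Gm11425) and 2 at an adjusted p under 0.1. In either direction the exact test called 14.9% of all tested genes, DESeq2 14.2% and the fit without the filter 4.17%. Fits without a library tested fewer samples, and otherwise the cause was not tested. Over all genes the counts in place of 657 higher and 314 lower were 1165 and 1073 in the exact test, 1511 and 898 in DESeq2, 662 and 207 with DESeq2 size factors, 915 and 204 without the filter, and 494 and 204 with 10 counts in every library. Same-numbered WT and KO libraries deviated together with r = -0.19, 0.29 and 0.31, and differently numbered ones with r between -0.50 and 0.41. The labels give them only a shared number, and these values cannot tell whether they also shared a batch. With a replicate block, 580 genes were higher and 217 lower, 3 members were called as before, and the values were 3.28 (Slfn2), 2.02 (Slfn8) and 2.01 (Slfn9). At totals of 20164081 to 29491767 counts, Slfn1 and the interferon genes were too low for the filter.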
